A study of Homo sapiens with 21 samples.

Results

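Tri-C was used to follow 51 enhancers through the later stage of a B cell to macrophage conversion, between 24 h and 96 h after induction. Tri-C is a chromosome conformation capture assay in which chromatin is cut with NlaIII, ligated, and enriched for a chosen restriction fragment, the viewpoint. Reads that hold the viewpoint and at least 2 further fragments of the same chromosome report which fragments met the enhancer at the same time in the same nucleus. The members were taken by group, with no measured value in the rule, although earlier results of these data were known. They are the enhancer viewpoints of the 24 h and 96 h samples, 1 viewpoint for each of 51 of the 53 captured loci, with the viewpoints of IFNGR2 and TASL left out. These make up 102 of the 371 count tables and rest on 6 of the 21 samples in the series. Of the loci, 36 were listed by the study as macrophage (iMac) loci and 15 as B cell loci. The study targeted them for genes specific to 1 of the 2 cell states. It treats the iMac loci as upregulated and the B cell loci as downregulated in this conversion. The 2 classes were therefore not drawn without regard to the conversion.

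The cells in the samples used here were BLaER (BLaER1), a leukaemia line of human B cells in which an inducible C/EBPα transgene drives conversion to macrophage-like cells, termed iMacs. The cells at 24 h and at 96 h had received 17β-estradiol, which activates the transgene, together with IL-3 and CSF-1, while the 0 h cells had received none of them. No CTCF degron was present in these cells, and no other treatment separated the groups. As a model this is a single leukaemia line with a forced transcription factor, and each library averages over the cells of a culture. A fall in a contact share can therefore not be told apart from a smaller share of cells that hold the contact. The 3 biological replicates of each time point, each with 3 technical replicates, had been merged into 1 table per locus. The comparison of 96 h with 24 h thus has no replicate check, and each exact test below compares 2 pooled libraries and covers counting error only.

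Enhancers are bound by transcription factors and act on promoters at a distance. CTCF, a zinc finger protein, halts the cohesin complex that extrudes chromatin loops, and CTCF-binding sites often mark the limits of the neighbourhood within which an enhancer makes its contacts. Multi-way assays ask whether enhancer, promoter and CTCF site come together as a hub, or in separate pairs. C/EBPα and PU.1, an ETS factor, are the main drivers of myeloid enhancers, AP-1 is a stimulus-responsive factor, and EBF1 and PAX5 maintain B cell enhancers.

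The viewpoints lay between genes in 35 loci and in introns in 16, at 17.0 to 588 kb (median, 66.7 kb) from the start of the canonical transcript of their gene. The CTCF site that the study had taken as the locus boundary lay at 21.3 to 819 kb (median, 140.3 kb). The sequences of 5 viewpoints are shown, because 4 of them (KLF4, PTPRC, CCR1 and RBPJ) had the largest late gains of promoter contact among the loci named here and EBF1 had one of the few late losses. Each is 300 bases of hg38, plus strand, centred on the captured fragment, and all 5 fragments lie between genes. The positions are chr9:107750154-107750453 for KLF4, chr1:198543781-198544080 for PTPRC, chr3:46089440-46089739 for CCR1, chr4:26074843-26075142 for RBPJ and chr5:158511552-158511851 for EBF1. Capitals mark matches on either strand to the letters TTGCNNAA (C/EBP), AGGAAGT (ETS), TGANTCA (AP-1) or CCCNNGGG (EBF).
KLF4 viewpoint: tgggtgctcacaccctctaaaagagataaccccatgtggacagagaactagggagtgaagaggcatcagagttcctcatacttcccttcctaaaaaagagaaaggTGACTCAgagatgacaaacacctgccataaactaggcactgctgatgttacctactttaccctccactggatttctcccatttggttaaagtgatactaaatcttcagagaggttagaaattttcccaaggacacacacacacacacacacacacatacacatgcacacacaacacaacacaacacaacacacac
PTPRC viewpoint: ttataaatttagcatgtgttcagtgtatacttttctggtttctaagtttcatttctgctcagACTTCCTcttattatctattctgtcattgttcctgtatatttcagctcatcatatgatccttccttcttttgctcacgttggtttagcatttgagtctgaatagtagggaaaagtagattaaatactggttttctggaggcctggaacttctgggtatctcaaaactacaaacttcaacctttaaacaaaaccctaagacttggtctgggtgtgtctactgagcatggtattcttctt
CCR1 viewpoint: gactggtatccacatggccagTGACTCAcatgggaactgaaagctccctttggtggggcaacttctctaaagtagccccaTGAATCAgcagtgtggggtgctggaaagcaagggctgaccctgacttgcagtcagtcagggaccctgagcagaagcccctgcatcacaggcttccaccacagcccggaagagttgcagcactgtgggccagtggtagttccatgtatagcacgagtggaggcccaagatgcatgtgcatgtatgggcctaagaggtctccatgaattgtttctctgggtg
RBPJ viewpoint: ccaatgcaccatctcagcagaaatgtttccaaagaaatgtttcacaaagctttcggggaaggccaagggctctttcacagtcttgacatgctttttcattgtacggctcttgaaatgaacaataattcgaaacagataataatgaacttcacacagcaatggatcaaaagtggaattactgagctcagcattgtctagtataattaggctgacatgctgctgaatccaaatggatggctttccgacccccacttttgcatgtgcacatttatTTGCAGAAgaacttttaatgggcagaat
EBF1 viewpoint: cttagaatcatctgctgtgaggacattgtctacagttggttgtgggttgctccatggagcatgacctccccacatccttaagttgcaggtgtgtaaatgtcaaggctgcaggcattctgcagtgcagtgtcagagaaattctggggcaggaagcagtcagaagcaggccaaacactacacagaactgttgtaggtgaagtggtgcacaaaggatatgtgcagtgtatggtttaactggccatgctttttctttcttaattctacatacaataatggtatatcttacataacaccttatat
The AP-1 letters occurred once in the KLF4 window and at 2 places in the CCR1 window. The ETS letters occurred once in the PTPRC window and the C/EBP letters once in the RBPJ window, and the EBF1 window held none of them. Over all viewpoints, the AP-1 letters were in 11 of 36 iMac windows (30.6%) and 1 of 15 B cell windows (6.7%), against 9.3% of 113148 windows of the same length taken across the 51 regions. The ETS letters were in 7 of 36 iMac windows (19.4%) and 1 of 15 B cell windows, against 6.0%. The C/EBP letters were in 7 of 36 and 2 of 15, against 15.0%, and the EBF letters in 3 of 36 and 2 of 15, against 5.4%. These counts are descriptions, and a match is not a bound site.

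The boundary sites were examined in the same way for part of the CTCF motif (CC, any 3 bases, AG, any 2 bases, GGC, on either strand) within 200 bases either side of the site. A match was found at 13 of 51 sites (25.5%), against 3.4% of 84888 windows of the same length from the same regions. At 12 of the 13 sites the match nearest to the centre was oriented towards the viewpoint. The orientation was shared by all 12 sites with a single match, and the exception was IGLL1, which held 2 matches. Examples of 30 bases, read along the motif strand with the match in capitals, are given for 4 loci in which the boundary is discussed below. They lie at chr9:107481212-107481241 (plus strand), chr5:140635163-140635192 (minus strand), chr11:33858018-33858047 (plus strand) and chr10:96340473-96340502 (minus strand).
KLF4 boundary site: cataaacaaCCTTTAGGAGGCagacatagc
CD14 boundary site: ccaacaggaCCCGCAGGGGGCagtgatgag
LMO2 boundary site: aggtgatggCCAGAAGGTGGCgctctgcat
DNTT boundary site: ttctgtcagCCATCAGAGGGCgctctgctg

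A count is 1 pair of reporter fragments seen in a read together with the viewpoint. The 51 loci held 2778228 counts within 1 Mb of the viewpoint at 24 h and 2376882 at 96 h, with 25239 to 99384 per locus at 24 h and 21161 to 97266 at 96 h. The 0 h library, shown for context, held 2547005. A kind of contact with no count at all could still have made up as much as 0.0142% of the counts in the shallowest locus at 96 h (3 counts). A read with several reporters gives several pairs, so the intervals, which treat counts as independent, are too narrow by an unknown amount.

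Promoter contact was measured as the E-P-X share, which is the share of a viewpoint's counts within 1 Mb in which 1 reporter lies in a 12 kb window on the promoter (P) and the other anywhere else (X), with pairs left out if a reporter was within 10 kb of the viewpoint or of its partner. Between 24 h and 96 h the enhancers of macrophage genes gained promoter contact, and those of B cell genes changed little. A locus was called where the two-sided Fisher's exact test gave a Benjamini-Hochberg adjusted p under 0.05 over the 51 loci and the odds changed by at least 1.2-fold. Among the 36 iMac loci the E-P-X share rose at 30 and fell at none, and among the 15 B cell loci it fell at 3 and rose at none. Over all loci 58.8% rose and 5.88% fell. The median log2 odds ratio was 0.51 for iMac loci, -0.17 for B cell loci and 0.41 for all. As a background, the same test over 12 kb tiles across the regions called 13.1% of 5607 tiles as risen and 22.1% as fallen at iMac loci, with a median log2 odds ratio of -0.16. At B cell loci 8.61% of 2405 tiles rose and 12.7% fell, with a median of -0.05. Most tiles lie beyond 200 kb (4383 of the 5607), whereas 30 of the 36 iMac promoters lie within 200 kb, so the nearer tiles are the closer background. At iMac loci 30.9% of 288 tiles at 10 to 50 kb rose and 4.51% fell, and 32.8% of 936 tiles at 50 to 200 kb rose and 13.7% fell. With counts divided by 3, 7.98% of the tiles at iMac loci rose and 4.14% fell.

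**Figure D1:**
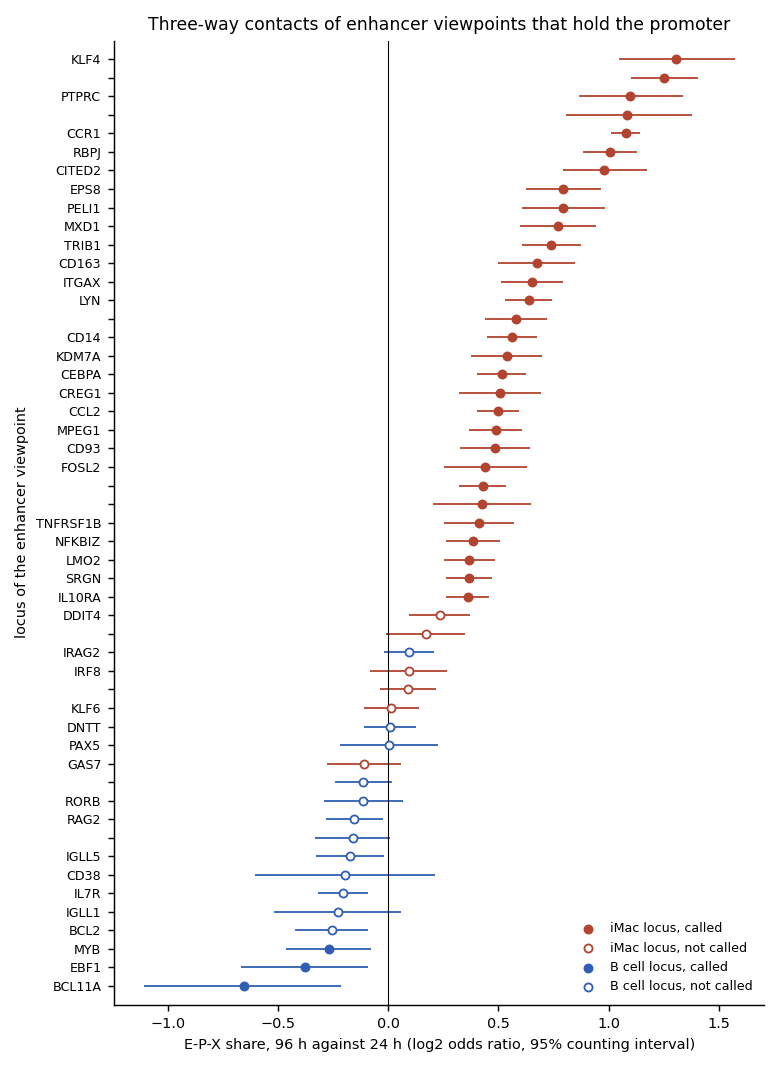
Change of the E-P-X share from 24 h to 96 h for each of the 51 loci, as a log2 odds ratio (x axis) with its exact 95% counting interval, ordered by size. Filled points are called loci, red points are iMac loci and blue points B cell loci, and 9 loci are drawn without a name. The iMac loci reach from -0.11 to 1.30 and the B cell loci from -0.65 to 0.09.

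The largest gain among the named loci was at KLF4, a transcription factor of monocyte differentiation whose viewpoint lies 260.5 kb from the promoter. Its E-P-X share was 0.207% at 0 h, 0.294% at 24 h (176 of 59874 counts, 95% Clopper-Pearson interval 0.252 to 0.341%) and 0.724% at 96 h (399 of 55097, 0.655 to 0.798%). The log2 odds ratio of 96 h against 24 h was 1.30 (95% interval 1.05 to 1.57, adjusted p = 1.58e-24, Fisher's exact test). PTPRC encodes CD45, the phosphatase of all white blood cells. Its share stood at 0.617% at 0 h and 0.637% at 24 h, whose intervals overlap, and at 1.35% at 96 h (log2 1.10, interval 0.86 to 1.34). The CCR1 viewpoint, at 118.7 kb from the promoter of this chemokine receptor, had the highest share of any iMac locus at 96 h. It went from 1.48% at 0 h to 3.10% at 24 h (3020 of 97353 counts) and 6.32% at 96 h (4985 of 78825), a log2 odds ratio of 1.08 (interval 1.01 to 1.14) for the later step.

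Other regulators moved in the same direction. RBPJ, the DNA-binding factor of Notch signalling, went from 1.13% (interval 1.06 to 1.21%) to 2.25% (2.13 to 2.37%), and CITED2, a cofactor that binds CBP and p300, from 0.697% to 1.37%. The enhancer of CITED2 lies 465.0 kb from its promoter. TRIB1, a pseudokinase that directs C/EBPα to degradation, went from 0.817% to 1.36% (log2 0.74), PELI1, a ubiquitin ligase of Toll-like receptor signalling, from 0.887% to 1.53% (log2 0.79), and KDM7A, a histone demethylase, from 1.68% to 2.42% (log2 0.54). The intervals at 24 h and 96 h did not overlap for any of these loci. The smallest called gains among the named iMac loci were at IL10RA (0.36), SRGN (0.36), LMO2 (0.37) and NFKBIZ (0.38 on the log2 scale).

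By gene group, the E-P-X share rose at 11 of 13 myeloid transcription regulators (median log2 0.54), 12 of 13 loci for myeloid surface and secreted proteins (0.50) and 7 of 10 loci for signalling and other myeloid genes (0.50). In the second group, CD14, the lipopolysaccharide co-receptor, went from 3.00% to 4.37%, MPEG1, a pore-forming protein of macrophages, from 2.53% to 3.51%, CD163, the scavenger receptor for haemoglobin, from 1.35% to 2.14%, and ITGAX, the integrin CD11c, from 1.37% to 2.14%. SRGN, a proteoglycan of secretory granules, went from 3.86% to 4.92%, and CCL2, a chemokine that attracts monocytes, from 1.99% to 2.78%. In the signalling group, LYN, a Src family kinase, went from 1.95% to 3.00%. CEBPA, the locus of the endogenous gene for the inducing factor, went from 1.63% to 2.31% after 1.54% at 0 h.

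Of the 6 iMac loci that were not called, 4 are named here. KLF6, a transcription factor induced early in myeloid cells, held 1.87% at 24 h and 1.89% at 96 h, after 0.903% at 0 h. IRF8, a factor of monocyte and dendritic cell fate, held 1.48% and 1.58% (log2 0.09, interval -0.08 to 0.27), and GAS7 1.19% and 1.10% (log2 -0.11, interval -0.28 to 0.06). DDIT4, an inhibitor of mTOR signalling, passed the Fisher's exact test (adjusted p = 0.00157) but its log2 odds ratio of 0.23 was under the minimum fold.

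The B cell loci with a late fall, 3 of 15, were all in the group of B lineage transcription factors, 3 of 4. That list was chosen with earlier results known. Of 200 other promoters at the B cell loci 18.5% fell, a similar share, so the falls were not particular to the target promoters. BCL11A, a repressor needed for lymphoid development, went from 0.184% (118 of 64214 counts, interval 0.152 to 0.220%) to 0.117% (68 of 58295, 0.0906 to 0.148%), a log2 odds ratio of -0.65. EBF1 went from 0.291% to 0.224% (log2 -0.38) and MYB from 1.07% to 0.892% (log2 -0.27). All 3 calls were lost when every count was divided by 3 (Fisher's exact test, adjusted p = 0.184, 0.186 and 0.166). The call of EBF1 was also lost with a 30 kb window and with each fragment pair counted once, and that of MYB with a 30 kb window and with distant counts as the denominator. PAX5, the fourth of the group, held 1.38% at both times (log2 0.00, interval -0.22 to 0.23).

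None of the 7 loci for B cell receptor and recombination genes was called (median log2 -0.17), nor any of the 4 other B cell loci (median -0.14). IL7R, the receptor for interleukin 7, went from 1.87% to 1.63%, below the minimum fold (log2 -0.20, interval -0.32 to -0.09). RAG2, a subunit of the V(D)J recombinase, went from 2.78% to 2.51%, IGLL1, a part of the surrogate light chain, from 0.717% to 0.612%, and BCL2, the inhibitor of apoptosis, from 1.33% to 1.12%. DNTT, the terminal transferase, held 2.10% and 2.11%, and IRAG2 2.50% and 2.66%. The intervals at the 2 times overlapped for RAG2, IGLL1, DNTT and IRAG2.

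**Figure D2:**
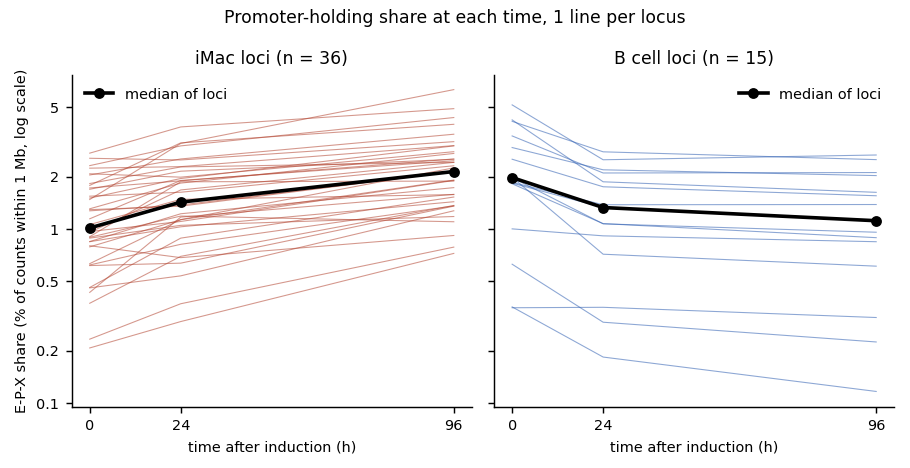
E-P-X share in percent of the counts within 1 Mb (y axis, log scale) against time after induction in hours, 1 thin line per locus and the median of the loci in black. The median of the iMac loci goes from 1.01% at 0 h to 1.43% at 24 h and 2.14% at 96 h, and that of the B cell loci from 1.98% to 1.33% and 1.12%.

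The earlier step, 24 h against 0 h, uses the same 24 h library, so the 2 steps are given side by side and were not tested against each other. In the earlier step 47.1% of loci rose and 25.5% fell. Among the iMac loci, 19 were called as risen in both steps, 5 in the earlier step only and 11 in the later step only, and 1 in neither. Among the B cell loci, 10 were called as fallen in the earlier step only, 3 in both and 2 in neither. The later log2 odds ratio was the larger in size at 22 of 36 iMac loci and at 1 of 15 B cell loci. PTPRC (0.05 in the earlier step, 1.10 in the later), EPS8 (0.19 and 0.79), CD163 (0.07 and 0.67), ITGAX (0.11 and 0.65), CEBPA (0.08 and 0.52) and CCL2 (-0.06 and 0.50) were called in the later step only. KLF6 (1.06 and 0.01), IRF8 (0.49 and 0.09), GAS7 (0.41 and -0.11) and DDIT4 (0.35 and 0.23) were called in the earlier step only, and FOSL2, an AP-1 subunit, had 1.44 and 0.44. At the B cell loci, IGLL1 had -1.49 and -0.23, IL7R -1.22 and -0.20, EBF1 -1.11 and -0.38, IRAG2 -1.09 and 0.09, and DNTT -0.73 and 0.01. EPS8 is a regulator of actin filaments.

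The gain was centred on the promoter in a part of the iMac loci. When counts in the 12 kb promoter window were set against the counts in 24 kb on either side of it, a measure added after the first results were seen, the promoter's portion rose at 16 of the 36 iMac loci, with no fall, and fell at 2 of the 15 B cell loci (31.4% of all loci rose and 3.92% fell). At KLF4 the window held 16.1% of the counts of the whole stretch at 24 h and 26.0% at 96 h, at RBPJ 25.7% and 33.8%, at CD14 42.9% and 50.8%, and at CCR1 30.3% and 35.6%. The 2 B cell loci were EBF1 (20.6% and 16.7%) and BCL2 (26.7% and 23.3%).

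Other protein-coding promoters within 1 Mb were called as risen less often than as fallen, with a different balance near the viewpoint. Of 901 such promoters 7.77% rose and 19.3% fell. Of the 701 at iMac loci 8.42% rose and 19.5% fell (median log2 -0.19), and of 200 at B cell loci 5.5% rose and 18.5% fell (median -0.16). The iMac values are mostly those of 571 promoters beyond 200 kb, of which 30 rose and 114 fell. At 50 to 200 kb 19.8% of 116 rose and 18.1% fell (median -0.01), and at 10 to 50 kb 6 of 14 rose and 2 fell (median 0.15). The gene's own promoter exceeded the median of its neighbours at 35 of 36 iMac loci, counting neighbours with at least 50 counts. It had the largest log2 odds ratio among the promoters of its region at 18. It exceeded the median of its neighbours at 6 of 15 B cell loci. This ranking covers promoters only. At most iMac loci the 12 kb tile of largest gain did not hold the gene's start. That tile had 1.65 at KLF4, 1.33 at RBPJ, 1.31 at NFKBIZ and 1.19 at CCR1. The tile did hold the start at PTPRC (0.96) and MXD1 (0.82). At CCR1, whose neighbours are other chemokine receptor genes, none of 29 other promoters reached 1.08. CCR3, at 152.9 kb on the promoter side, rose (log2 0.37), while XCR1 (-0.30), CXCR6 (-0.27) and CCR9 (-0.74), all on the other side of the enhancer, fell. At BCL11A the median of 5 other promoters was -0.57, close to the -0.65 of the target, and at EBF1 it was -0.61 against -0.38.

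**Figure D3:**
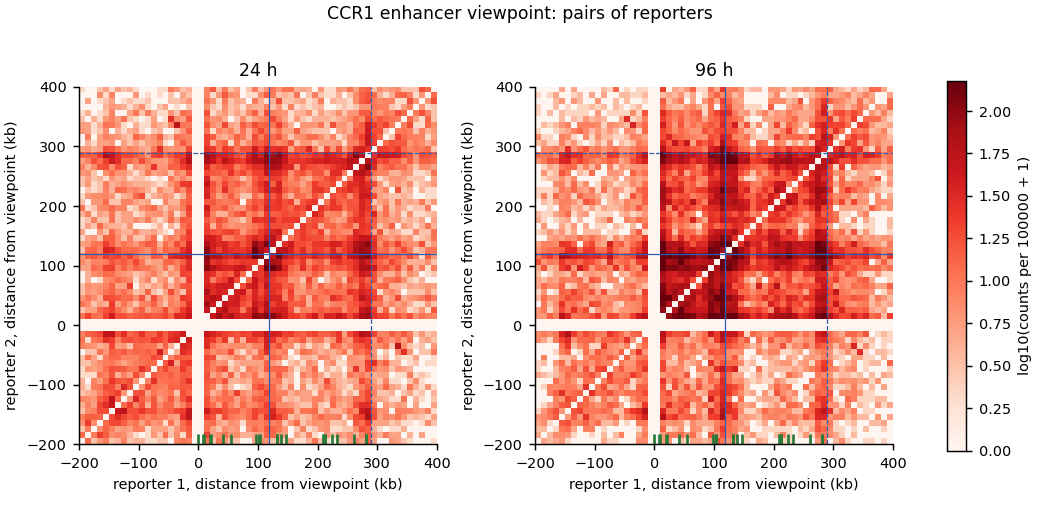
Pairs of reporters met by the CCR1 enhancer at 24 h (left) and 96 h (right), in bins of 10 kb, with both axes in kb from the viewpoint and colour as log10 of counts per 100000 plus 1. Solid lines mark the promoter at 118.7 kb, dashed lines the boundary site at 288.8 kb and green ticks the listed enhancers; the square between viewpoint and boundary is darker at 96 h, and the area beyond the boundary is paler.

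Listed enhancers of iMac genes were called as risen more often than as fallen. Each of the enhancers and CTCF sites that the study lists for these promoters was measured in a 6 kb window in the same way as the promoter, again a measure added after the first results. Of 858 such elements, 43.0% rose and 9.09% fell. At iMac loci 195 of 332 enhancers rose (58.7%) and 19 fell (median log2 0.39), and 151 of 351 CTCF sites rose (43.0%) with a median of 0.25. At B cell loci 4 of 58 enhancers rose (6.9%) and 13 fell (22.4%), with a median of -0.05. Windows of neighbouring elements overlap, so these are not independent. The study called the elements from promoter contacts at several stages of the conversion, 96 h included, so an element may be listed because its contact was high late, and the counts of rises, here and in the measures below that use these elements, are not independent evidence of a gain. At CCR1, 19 of 20 enhancers rose, from 0.45 to 1.31 on the log2 scale, with the highest at 210.8 kb from the viewpoint, and the one not called, at 260.4 kb, had -0.10. The median over the enhancers of the locus was 1.02 for RBPJ (12 enhancers), 0.73 for NFKBIZ (8), 0.72 for KLF4 (20) and 0.68 for MXD1 (17). It was 0.04 for LYN, where none of 8 rose although the promoter did.

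Counts in which 1 reporter lay in another listed enhancer and the other in the promoter window were taken as E-E-P counts. They hold 2 enhancers and the promoter, which the study terms an E-E-P hub. These counts are a part of the E-P-X counts and were not set against the product of their parts. Whether they exceed that product was not tested. Of the 35 iMac loci with enough counts (at least 20 over both libraries) 25 had a rise and none a fall, at a median log2 of 0.78. Of the 10 such B cell loci 3 had a fall (median -0.16). Over all 45 loci 55.6% rose and 6.67% fell. At CCR1 these counts went from 832 of 97353 (0.855%, interval 0.798 to 0.914%) to 1634 of 78825 (2.07%, 1.98 to 2.18%), at KLF4 from 24 to 91 (0.0401% to 0.165%), at RBPJ from 113 to 220 (0.131% to 0.379%) and at CD14 from 288 to 501 (0.699% to 1.48%). CITED2 had only 2 such counts at 24 h and 19 at 96 h, a log2 odds ratio of 3.03 with an interval of 1.26 to 6.46. At the B cell loci IL7R fell from 266 to 162 counts (0.324% to 0.223%) and RAG2 from 143 to 77 (0.355% to 0.220%). The IL7R call was lost with 3 kb windows (log2 -0.29) and with counts divided by 3, and the RAG2 call with counts divided by 3 and with each fragment pair counted once. Neither of these 2 loci was called for the promoter share itself.

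Among the distant reporters, meaning those of pairs whose members lay more than 10 kb apart and more than 10 kb from the viewpoint, the portion in listed enhancers had a median of 9.76% at 24 h and 12.04% at 96 h at iMac loci, after 8.21% at 0 h, on windows that cover 2.06% of the region. It was higher at 96 h in 32 of 36 loci. The portion outside every listed element had a median of 79.9% and 75.7% and was lower at 96 h in 34 of 36 loci. At B cell loci the portion in listed enhancers had medians of 5.90%, 4.51% and 3.96% at the 3 times.

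Contact with the boundary CTCF site, measured as the E-C-X share in the same way as E-P-X, was called as risen at 21 and fallen at 1 of the 36 iMac loci (median log2 0.39), and as risen at 4 and fallen at 3 of the 15 B cell loci (median 0.09). Over all loci 49.0% rose and 7.84% fell. By group it rose at 11 of 13 myeloid transcription regulators (median 0.64), 6 of 13 surface and secreted protein loci (0.24) and 4 of 10 signalling loci (0.20). CITED2 went from 0.236% to 0.445% (log2 0.91), KLF4 from 0.439% to 0.802% (0.87), SRGN from 1.53% to 2.74% (0.86) and NFKBIZ from 0.977% to 1.65% (0.77). At KLF4, CD14 and MXD1 the boundary site lies 8.6, 2.0 and 2.8 kb from the promoter, so the windows overlap and the shares are not separate measures. Without these 3 loci, 27 of 33 iMac loci rose in the E-P-X share.

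Promoter and boundary did not always move alike. KLF6 (0.919% to 1.43%, log2 0.64), IRF8 (1.10% to 1.49%, 0.44) and GAS7 (1.22% to 1.60%, 0.40) gained boundary contact with no called change at the promoter. PTPRC (0.766% to 0.755%, log2 -0.02), TRIB1 (0.978% to 0.947%, -0.05) and RBPJ (0.493% to 0.572%, 0.21) had no called change at the boundary although the promoter share rose. At IL7R the boundary share rose from 0.649% to 1.03% (log2 0.67), while the promoter share had a log2 odds ratio of -0.20. CD38, an NAD-consuming ectoenzyme, and BCL11A had the largest boundary losses, from 0.362% to 0.169% (log2 -1.09, 110 and 54 counts) and from 0.484% to 0.257% (log2 -0.91). Across the 36 iMac loci the log2 odds ratios of the promoter and boundary shares had a Pearson r of 0.25 and a Spearman rho of 0.17, given as a description over loci that share both libraries.

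Counts that hold enhancer, promoter and boundary site at once (E-P-C) were few. Of the loci with separate windows, 24 of 33 in the iMac class and 8 of 15 in the B cell class held at least 20 of them over both libraries. Among these, 12 of the former and 2 of the latter rose and none fell, with medians of 1.19 and 0.23, and 43.8% of the 32 loci rose. At CCR1 they went from 137 of 97353 counts (0.141%, interval 0.118 to 0.166%) to 301 of 78825 (0.382%, 0.340 to 0.427%), a log2 odds ratio of 1.44. They went from 99 to 129 counts at SRGN (0.234% to 0.425%), from 37 to 80 at LYN (0.0547% to 0.144%), from 42 to 69 at CEBPA (0.04998% to 0.124%) and from 53 to 90 at CCL2 (0.0596% to 0.139%). LMO2 held 55 and 50 counts (0.142% and 0.150%) and RAG2 134 and 111 (0.333% and 0.318%), neither called. The B cell loci called were IRAG2 (38 to 71 counts) and IGLL5 (11 to 24 counts). The IGLL5 call was lost with a 30 kb window (log2 0.12) and with each fragment pair counted once, and the CCL2 call with a 7.5 kb window (log2 0.55). The three-part share was also set against the product of its 2 parts, here with all shares taken over distant counts. The log2 ratio was higher at 96 h in 16 of 24 iMac loci (median difference 0.34) and in 6 of 8 B cell loci (0.13). The ratio itself was below 0 at 96 h at most of these loci, so the three-part share was under the product. It was -0.787 at 24 h and -0.382 at 96 h at CCR1, and 0.061 at 96 h at TRIB1. This is a description with no test, and the level depends on the denominator.

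Within 1 Mb of the viewpoint, the reach of the enhancers shortened at most iMac loci. Contacts beyond 1 Mb are not part of this measure. Of all counts on the chromosome, those within 1 Mb had a median share of 65.46% at 24 h and 62.69% at 96 h. That median is over all 51 loci and is not a value for the iMac loci. Among iMac loci this share fell at PTPRC (54.11% to 50.1%) and SRGN (63.2% to 59.67%) and rose at KLF4 (66.01% to 70.86%) and CCR1 (76.57% to 79.08%). Among B cell loci it fell at EBF1 (61.08% to 55.58%), IL7R (66.73% to 59.66%) and RAG2 (55.72% to 49.07%), for example, and rose at IGLL5 (79.91% to 80.41%). Of the reporters on the boundary's side of the viewpoint, the portion beyond the boundary site fell at 25 and rose at 1 of the 36 iMac loci (median log2 -0.49), and fell at 4 of the 15 B cell loci (median -0.08). Over all loci 56.9% fell and 1.96% rose. Here, in the distance bands below and in the portions of promoter and boundary windows above, both reporters of a pair were counted. These tests treat linked reporters as independent, so they understate the counting error more than the E-P-X test does. At KLF4 the portion was 25.8% at 0 h, 27.7% at 24 h and 12.3% at 96 h (log2 -1.45 for the later step). It was 20.7% and 10.9% at NFKBIZ (-1.09), 27.4% and 16.0% at TRIB1 (-0.99), 31.3% and 19.5% at RBPJ (-0.91), 46.3% and 32.5% at PTPRC (-0.84), and 24.6% and 17.6% at CCR1 (-0.61). The exception among iMac loci was DDIT4, 79.5% and 83.1% (log2 0.35), whose boundary lies only 21.3 kb from the viewpoint. With 5 kb around the viewpoint left out its log2 odds ratio was 0.25, under the minimum fold. Among the B cell loci DNTT (43.3% and 36.2%) and BCL11A (20.9% and 15.8%) were among those that fell. In the earlier step crossing had fallen at 14 of the 36 iMac loci, 8 of which fell again.

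**Figure D4:**
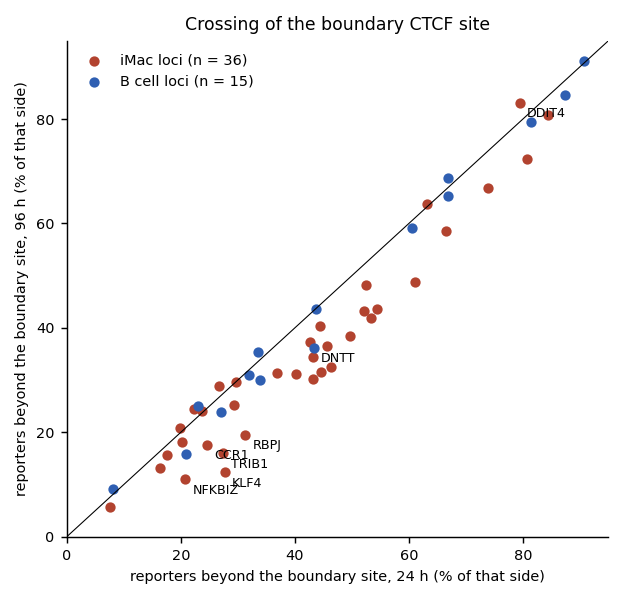
Portion of reporters beyond the boundary CTCF site, in percent of those on its side of the viewpoint, at 24 h (x axis) and 96 h (y axis), 1 point per locus, with a line of equal values. Most iMac loci (red) lie below the line, with KLF4 at 27.7% and 12.3%, while most B cell loci (blue) lie near it.

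The shift can also be described by distance alone. The 3 bands are portions of 1 set of distant reporters, so a fall in 1 band goes with a rise elsewhere. The boundary measure drew on the same reporters, so the bands are not separate evidence. At iMac loci the portion of distant reporters at 10 to 50 kb from the viewpoint rose at 11 of 36 loci and fell at 3, and that at 50 to 200 kb rose at 16 and fell at none, with medians of 0.15 and 0.16. The portion at 200 to 1000 kb fell at 24 of 36 loci and rose at none (median -0.41). At B cell loci the calls were none, 2 risen and 1 fallen, with medians of 0.04, 0.05 and -0.08. Over all 51 loci 21.6% rose in the nearest band, 35.3% in the middle band and none in the farthest, where 49.0% fell. EPS8 had the largest loss, from 40.5% of distant reporters beyond 200 kb to 24.4%, followed among named loci by MXD1 (33.6% to 22.8%) and CD14 (34.8% to 24.5%). The B cell locus that lost was CD38 (43.4% to 36.8%). Of the tiles beyond 200 kb at iMac loci 7.69% rose and 25.1% fell, against the higher shares of rises nearer by given above.

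**Figure D5:**
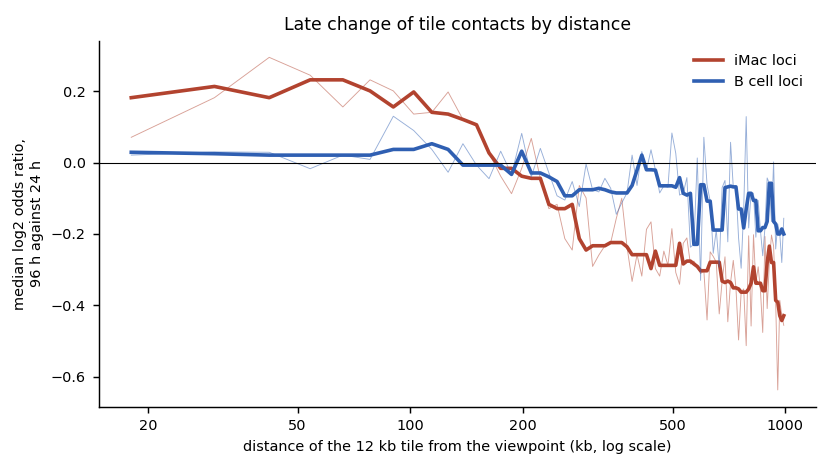
Median log2 odds ratio of 96 h against 24 h over all 12 kb tiles at the same distance from the viewpoint (x axis, kb, log scale), thin lines for single distances and thick lines for a running median of 5, for iMac (red) and B cell (blue) loci. The red line is above 0 near the viewpoint and below it beyond 200 kb, with a median over all iMac tiles beyond 200 kb of -0.27, and the blue line stays closer to 0.

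Promoters beyond 200 kb had a median E-P-X log2 odds ratio of 0.86 at 6 iMac loci, against 0.64 at 17 loci with the promoter at 50 to 200 kb and 0.41 at 13 loci within 50 kb. At the 5 B cell loci beyond 200 kb the median was -0.26. These are medians over few loci with overlapping ranges (0.01 to 1.30, -0.11 to 1.25 and 0.09 to 0.67 for the iMac loci), and they were not tested.

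The share of counts that were distant at all moved less. It rose at 9 of 36 iMac loci, fell at none, and was called at no B cell locus (17.6% of all loci rose), with medians of 0.08 and -0.02. The myeloid transcription regulators held 6 of the 9. CD93, a receptor of monocytes and endothelium, went from 23.1% to 29.4%, NFKBIZ from 26.0% to 31.2%, CCR1 from 34.5% to 39.4% and KLF6 from 38.9% to 43.8%. LYN (27.8% at both times) and PTPRC (29.0% at both) did not pass the test. The promoter call depended on the denominator at 3 named iMac loci. With distant counts as the denominator the E-P-X log2 odds ratio of NFKBIZ, an atypical inhibitor of NF-κB, was 0.12 (Fisher's exact test, adjusted p = 0.0713). It was 0.14 at CD93 (Fisher's exact test, adjusted p = 0.102) and 0.25, under the minimum fold, at FOSL2. The portion of pairs with 1 reporter on each side of the viewpoint rose at 2 iMac loci and fell at 1 iMac and 1 B cell locus, with medians of 0.05 and 0.00.

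For 5 named loci the promoter call depended on the start site used. At MXD1, a transcriptional repressor that pairs with MAX, the E-P-X share at the canonical start rose from 1.13% to 1.91% (log2 0.77), but at the gene's outermost start the log2 odds ratio was -0.33 (Fisher's exact test, adjusted p = 0.0366). At LMO2, a haematopoietic cofactor, the share at the canonical start rose from 3.127% to 3.997%, but at the study's own promoter probe, 22.1 kb away, the log2 odds ratio was 0.05 (Fisher's exact test, adjusted p = 0.585). At the outermost start IRAG2 became a called rise (0.36 on the log2 scale) and NFKBIZ fell under the minimum fold (0.21), and at the study's probe IGLL1 became a called fall (-0.31).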

How the data were processed

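Tri-C counts of the enhancer viewpoints at 24 h and 96 h (and 0 h for context) were taken as deposited. Per the study's methods, the authors processed reads with CapCruncher in capture mode on hg38, merged all replicates, kept reads with 2 or more reporters in cis and counted every pair of reporters, so the deposited values are raw counts per fragment pair. All 424997 fragments tested lay between neighbouring NlaIII sites of hg38, and the viewpoint fragment was absent from the reporters at 50 of 51 loci. Viewpoint, boundary and element positions came from the study's lists of capture probes and promoter contacts (positions only), and promoters from the canonical transcripts of GENCODE 44. A locus was tested where it held at least 20 counts of a kind over both libraries. Shares were compared by two-sided Fisher's exact tests (SciPy 1.17.1) with Benjamini-Hochberg adjustment over all loci, log2 odds ratios with 0.5 added to each cell, and exact conditional 95% intervals. On simulated counts for the E-P-X comparison of 51 loci, 98.6% of 1.5-fold rises were called and 99.7% of unchanged loci were not. The simulated counts were independent, with no spread between replicates and no reads that give several pairs. These rates therefore check the calculation only and are not error rates for the real libraries. The members and gene lists were chosen with earlier results of these data known. Loci named are those the study's text names, up to 8 of the largest called rises and 8 of the largest falls with at least 50 counts, and the 3 deepest loci of each list. Some single loci that this rule covers are not reported here by name but enter every count, and a few others are named as examples chosen after their values were seen.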

Additional observations from a re-analysis of the deposited data

How the results depend on the processing

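The files pool the 3 biological replicates, so no replicate could be left out and no spread between replicates is known. No paired analysis was possible because the replicates of each time point had been merged before deposit. Counts of 1 read are not independent, and dividing all counts by 3 is a guard against that, which also lowers the number of features with at least 20 counts. Over 59 other settings and 2 more chosen after seeing the data, 329 of 384 group summaries stayed within 1.5 times (counts) or within the interval of the median over loci (medians), and 55 moved. Of 2191 values of single loci, 2016 kept their call, 108 gained a call, 62 lost it and 5 reversed. A reversal was counted only where the locus was called in at least 1 of the 2 settings compared. Changes of sign at loci called in neither were not counted. The median E-P-X log2 odds ratio stayed at 0.479 to 0.544 for iMac loci (27 to 31 rose) and -0.236 to -0.125 for B cell loci. The cause of the changes listed next was not tested.

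The number of B cell loci with a fallen E-P-X share, 3, became 5 with a 7.5 kb window, 5 with 5 kb excluded, 6 over the whole chromosome, 0 with counts divided by 3 and 7 without the minimum fold. At the outermost start 1 iMac locus fell (MXD1, -0.333) and 1 B cell locus rose. For E-C-X, the 1 iMac locus that fell became 0 with a 7.5 kb window, with 20 kb excluded and with counts divided by 3, the B cell falls became 5 over the whole chromosome, and MYB reversed to 0.274 with a 30 kb window. The 12 iMac rises of E-P-C became 7 with a 7.5 kb window and 6 with counts divided by 3. Its 2 B cell rises became 1 with a 7.5 kb window, 20 kb excluded, counts divided by 3 or each pair once, and with a 30 kb window 1 B cell locus fell. For boundary crossing, iMac rises became 0 with 5 kb or 20 kb excluded (at DDIT4, whose boundary lies 21.3 kb away, the 20 kb setting leaves no reporters before the boundary window, and its value of -0.193 with an exact adjusted p of 1.0 shows no reversal) and 4 without the minimum fold. B cell falls became 2 with 5 kb excluded and 8 without the minimum fold, where 3 rose. With 50 kb as the limit for distant counts the median distant share was -0.092 at iMac loci (8 fell, MXD1 reversed to -0.282) and -0.084 at B cell loci. With each pair once 1 iMac locus fell, and without the minimum fold 19 iMac and 5 B cell loci rose and 7 of each class fell. The 3 B cell falls of E-E-P became 1 with 3 kb windows, 0 with counts divided by 3 and 1 with each pair once, and CREG1 reversed to -0.255 with 3 kb windows. With 20 kb excluded, 1 iMac locus fell at 10 to 50 kb, 2 B cell loci fell at 200 to 1000 kb, and the opposite-side share rose at 5 and fell at 2 iMac loci. That share rose at 0 iMac loci with 5 kb excluded and fell at 2 with each pair once. With counts divided by 3, tiles rose and fell at 7.98% and 4.14% in iMac loci and at 1.0% and 1.5% in B cell loci, where each pair once gave 5.68% and 6.1%. Other promoters rose and fell at 2.76% and 2.96% (iMac) and 0.0% and 1.82% (B cell) with counts divided by 3. At B cell loci they gave 3.54% and 7.58% with each pair once, and 2.67% rose with a 7.5 kb window, while 31.6% fell at iMac loci with a 30 kb window.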
